A study of Mus musculus with 6 samples.

Results

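The 9 genes described here encode transient receptor potential (TRP) channels of the A, V and M subfamilies: Trpa1, Trpv1, Trpv2, Trpv4, Trpm2, Trpm3, Trpm4, Trpm7 and Trpm8. They were taken by NCBI mouse gene ID from the 36528 genes listed in each library, and all 9 were found and passed the filter on low counts. RNA of lumbar dorsal root ganglia, which hold the cell bodies of sensory neurons, was sequenced from female mice aged 12 to 18 weeks. The knockout group was labelled Scn9a loxP/loxP, pCAAG.Cre.ER Pos (CreER-positive, n = 3 mice) and its littermate controls Scn9a loxP/loxP, pCAAG.Cre.ER Neg (control, n = 3 mice). Both groups therefore carry the floxed allele of Scn9a, the gene of the sodium channel Nav1.7, and they differ in CreER, a Cre recombinase whose activity depends on an oestrogen-receptor ligand. The series title calls the knockout global, so loss of Nav1.7 is not limited by design to neurons, and no source used here gives the ligand or its timing. The 6 ganglia of a single mouse were pooled for each library, and replicate numbers here only name the libraries and pair no mice. The comparison asks which channel transcripts differ when floxed Scn9a is combined with CreER.

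TRP channels are cation channels with a shared membrane core, and many of them turn a temperature, a chemical or a lipid signal into a sensory current. In the ganglia, TRPA1 is the receptor for pungent and reactive irritants such as mustard oil. TRPV1 is the receptor for capsaicin and noxious heat, TRPM8 the receptor for menthol and cold, and TRPM3 a heat sensor. The transcription factor Runx1 is known, from mouse ganglia, to be required for normal expression of several of these channels in nociceptors.

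Library totals ran from 52309273 to 62625441 counts in CreER-positive mice and from 40237131 to 63332040 counts in controls. Scn9a itself had 620, 564 and 574 CPM (the usual count scaled to library size, here with TMM factors) in CreER-positive mice and 635, 611 and 557 CPM in controls, with an edgeR adjusted p of 0.918. Those counts cover the whole gene and so do not check the deletion. Each of the 10 pan-neuronal markers had counts in every library. CreER-positive replicate 3 stood apart, with the lowest summed pan-neuronal markers (7351 CPM, against 7781 to 9339 CPM elsewhere) and the highest summed macrophage markers (159.9 CPM, against 82.3 to 109 CPM elsewhere). Control replicate 2 had 61.5 CPM of summed skeletal muscle markers, against 5.75 to 8.74 CPM elsewhere.

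Start-site sequences of the heat, cold and TRPV2 channel genes are shown because the level of Runx1 differed between the groups. They come from RefSeq windows of GRCm38.p6 that reach from 250 bases before to 50 bases after an annotated start, and 7 of the 9 genes matched a window, all but Trpa1 and Trpm4. Capitals mark TGTGGT or its reverse complement ACCACA, the letters of the RUNX core site, searched on both strands. The Trpv1 and Trpm8 lines give the 250 bases before the start, on the plus strand at chr11:73233899-73234148 and chr1:88306485-88306734. The Trpv2 line gives 30 bases at chr11:62574498-62574527, also on the plus strand.
Trpv1: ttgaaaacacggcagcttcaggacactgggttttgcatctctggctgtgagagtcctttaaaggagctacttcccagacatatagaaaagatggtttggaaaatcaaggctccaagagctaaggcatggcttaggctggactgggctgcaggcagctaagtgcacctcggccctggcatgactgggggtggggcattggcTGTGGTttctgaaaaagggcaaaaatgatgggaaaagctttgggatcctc
Trpm8: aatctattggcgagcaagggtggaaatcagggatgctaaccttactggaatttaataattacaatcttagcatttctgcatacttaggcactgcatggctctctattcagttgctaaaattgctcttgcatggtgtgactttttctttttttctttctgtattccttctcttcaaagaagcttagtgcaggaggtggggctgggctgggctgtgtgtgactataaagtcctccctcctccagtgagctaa
Trpv2: agagcaggaagcTGTGGTagaggctggcct
In Trpv1 the letters begin at position -50 from the start, and in Trpv2 at position 25 after the most upstream start. One of the Trpm3 windows also held them, at position -166. Of 10 windows over the 7 genes, 4 held the letters, and 2 of these 4 are overlapping Trpv2 windows with the same match. The letters stood in 16.8% of all 32851 windows. Neither the Trpm8 window nor those of Trpv4, Trpm2 and Trpm7 held them. Such a match describes the letters of the window only, and the part of Runx1 in any channel level was not tested. Runx1 had 106, 94.4 and 88.0 CPM in CreER-positive mice, against 136, 125 and 126 CPM in controls, so every CreER-positive library lay below every control. It fell by 0.43 on the log2 scale (SE 0.07), with an edgeR adjusted p of 0.0358, and it was named after its value had been seen. That call ended without CreER-positive replicate 2 (0.1003), without control replicate 1 (0.197), 2 (0.1402) or 3 (0.134), with control replicate 2 and CreER-positive replicate 3 both left out (0.0758), and with scaling to pan-neuronal markers (0.0634). Runx1 overlaps the annotated gene Gm30281, and without a known strand setting their reads cannot be told apart.

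Of the 9 channel genes, Trpa1 was the single one called, and it was higher in CreER-positive ganglia. Trpa1 (NCBI gene 277328, chromosome 1, 14872644 to 14918862, minus strand, GRCm38.p6) had 213.8, 197.3 and 206.1 CPM in CreER-positive mice, against 161.3, 160.4 and 160.5 CPM in controls. All 3 CreER-positive libraries lay above all 3 controls, and the controls lay close to each other. These levels rest on 12828, 12126 and 10971 counts in CreER-positive libraries and 6561, 8886 and 10149 counts in control libraries. Trpa1 averaged 205.7 ± 8.28 CPM in CreER-positive mice and 160.7 ± 0.535 CPM in controls (SD, n = 3 each). Its log2 fold change was 0.36 ± 0.05 (SE), a fold of 1.28, with a 95% interval from 0.24 to 0.48. The edgeR adjusted p over all 22043 tested genes was 0.0178. Of all tested genes, 0.726% were called in either direction and 0.163% were called higher, beside 1 of the 9 channel genes. In bulk ganglia, more Trpa1 RNA per cell and more cells that express Trpa1 cannot be told apart.

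The SD of Trpa1 was 4.03% of the mean between CreER-positive mice, where counting error alone gives 0.916%, and 0.333% between control mice, where counting error alone gives 1.10% and so exceeds the spread seen. The edgeR test does not rest on that control spread alone, since it shares information on spread between genes. The direction held in each of the 16 alternative settings, with log2 fold changes from 0.33 to 0.39, and 10 of them kept the call. The call ended without CreER-positive replicate 1 (edgeR adjusted p 0.0785) and without control replicate 1 (0.132), 2 (0.143) or 3 (0.109). It also ended when control replicate 2 and CreER-positive replicate 3 were both left out (0.0533), and when libraries were scaled to pan-neuronal markers (0.229, log2 fold change 0.34).

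**Figure D1:**
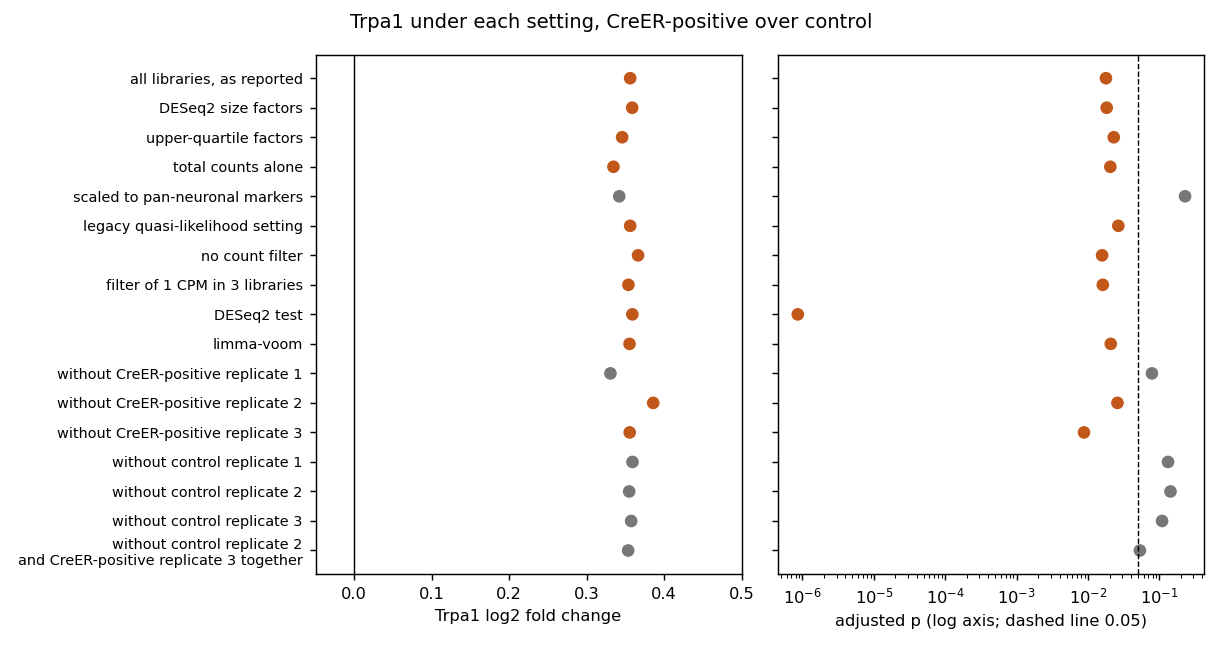
Log2 fold change of Trpa1, CreER-positive over control (left, linear axis) and its adjusted p (right, log axis, dashed line at 0.05) with all libraries and under each alternative setting; orange points are past the threshold and grey points are not. Every estimate lies between 0.33 and 0.39, while the adjusted p runs from 8.60e-07 with DESeq2 to 0.229 with scaling to pan-neuronal markers.

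Trpa1 is known from nociceptors, and the markers of these neurons were read beside it. Summed markers of peptidergic nociceptors, the small neurons that release CGRP and substance P, were 2445 to 2642 CPM in CreER-positive mice and 2019 to 2365 CPM in controls. Summed markers of non-peptidergic nociceptors and pruriceptors, which include the mouse neurons with Mrgprd, were 2006 to 2355 CPM in CreER-positive mice and 2500 to 2546 CPM in controls. The first of these sums was thus higher and the second lower in CreER-positive mice, with no overlap in either case. The peptidergic sum rests mostly on the CGRP gene Calca, which averaged 1595 CPM in CreER-positive mice and 1342 CPM in controls, and on Tac1, the substance P precursor gene, which averaged 405 CPM in CreER-positive mice and 309 CPM in controls. Calcb (-0.12), Sstr2 (-0.13) and Gal (-0.03) had negative log2 fold changes. Of 9 peptidergic markers 0 were called by edgeR and limma-voom, and 4 had an unadjusted p under 0.05, beside 10.6% of all tested genes. By DESeq2, 1 was called, Tac1. Of 15 non-peptidergic markers 2 were called lower, Mrgprd (-1.22) and the semaphorin receptor gene Plxnc1 (-0.43, log2 fold changes), where 0.563% of all tested genes were called lower. Mrgprd kept its call in every alternative. In the non-peptidergic sum, Plxnc1 averaged 387 CPM in CreER-positive mice and 522 CPM in controls. Mrgprd averaged 59.8 CPM in CreER-positive mice and 139 CPM in controls. Of the 15 markers 4 had a positive log2 fold change, among them P2rx3 (0.08) and Gfra1 (0.09). The Plxnc1 call (edgeR adjusted p 0.0438) ended without any 1 control (0.165 to 0.235), without CreER-positive replicate 1 (0.0511) or 2 (0.112), and with DESeq2 size factors (0.0508). Mrgpra3, an itch receptor gene of the same list, was called higher by DESeq2 (log2 fold change 0.29, adjusted p 0.0251) and not by edgeR (0.111). All 9 peptidergic and all 15 non-peptidergic markers had counts in every library. The part of these shifts in the Trpa1 result was not tested.

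Trpv1 (NCBI gene 193034, chromosome 11, 73234149 to 73261322, plus strand) had the highest level per length of the 9 genes. It had 248, 239.5 and 227 CPM in CreER-positive mice, against 217, 219.8 and 209 CPM in controls. The groups did not overlap, as was the case for 15.9% of all tested genes. The log2 fold change was 0.15 ± 0.06 (SE), with a 95% interval from 0.02 to 0.28 and an edgeR adjusted p of 0.414, and Trpv1 was not called. DESeq2 gave an adjusted p of 0.344 and limma-voom 0.435.

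Trpv2 (NCBI gene 22368, chromosome 11, 62574486 to 62600305, plus strand) encodes a TRPV1 relative found in large sensory neurons and in macrophages. It had 75.6, 73.5 and 68.5 CPM in CreER-positive mice, against 87.6, 74.0 and 84.6 CPM in controls. CreER-positive replicate 1 lay above control replicate 2, so the groups overlapped. The log2 fold change was -0.18 ± 0.07 (SE), with an interval from -0.34 to -0.02 and an edgeR adjusted p of 0.426. Among 8 markers of A-fibre neurons 0 were called by edgeR, and their summed level was 1612 to 2097 CPM in CreER-positive mice and 1505 to 1799 CPM in controls. Macrophage markers summed to 86.6 to 159.9 CPM in CreER-positive mice and 82.3 to 109 CPM in controls, and CreER-positive replicate 3 had the highest of these sums and the lowest Trpv2 level. The part of either sum in the Trpv2 value was not tested.

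Trpv4 (NCBI gene 63873, chromosome 5, 114622152 to 114658435, minus strand), the gene of a channel opened by swelling and warmth, had the fewest counts of the 9. It had 3.48, 3.27 and 4.40 CPM in CreER-positive mice, against 3.96, 4.69 and 4.60 CPM in controls. CreER-positive replicate 3 lay within the control values and the other two lay below them. On 161 to 291 counts a library, the log2 fold change of -0.26 had a wide interval, from -0.57 to 0.05, and an edgeR adjusted p of 0.571. Counting error alone was 6.84% of the mean in CreER-positive mice and 6.60% in controls.

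The cold receptor gene Trpm8 (NCBI gene 171382, chromosome 1, 88306735 to 88388853, plus strand) had 61.0, 60.1 and 53.7 CPM in CreER-positive mice, against 57.8, 59.6 and 60.9 CPM in controls. The groups overlapped, and the lowest value was that of CreER-positive replicate 3. The log2 fold change was -0.03 ± 0.06 (SE) with a 95% interval from -0.17 to 0.11 and an edgeR adjusted p of 0.914. A change as large as that of Trpa1 lies outside this interval. The sign of the Trpm8 estimate turned without CreER-positive replicate 3 (0.03). Of 4 markers of cold-sensing neurons 0 were called by edgeR and 1 had an unadjusted p under 0.05, beside 10.6% of all tested genes. Their summed level was 39.1 to 44.7 CPM in CreER-positive mice and 44.9 to 47.3 CPM in controls, and its part in the Trpm8 value was not tested.

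The heat-sensing channel gene Trpm3 (NCBI gene 226025, chromosome 19, 22137797 to 22995410, plus strand) had 80.9, 70.9 and 74.7 CPM in CreER-positive mice, against 81.3, 83.2 and 73.3 CPM in controls. Again the groups overlapped, with a log2 fold change of -0.07 ± 0.07 (SE, interval -0.22 to 0.09) and an edgeR adjusted p of 0.799. Trpm3 spans other annotated genes, 3 long non-coding RNA genes and Mir204. The long non-coding RNA gene with most counts, Gm27151 on the minus strand, had 151 to 209 counts in CreER-positive libraries and 153 to 216 counts in control libraries. Trpm3 had 3977 to 4855 counts in CreER-positive libraries and 3306 to 4634 counts in control libraries, so reads shared with Gm27151 could be a small part of them.

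Trpm2, Trpm4 and Trpm7 are channels with tasks beyond temperature. Trpm2 (NCBI gene 28240, chromosome 10, 77907722 to 77969909, minus strand), opened by ADP-ribose and oxidative stress, had 40.5, 43.3 and 35.8 CPM in CreER-positive mice and 36.8, 40.3 and 41.8 CPM in controls. The groups overlapped, and the log2 fold change was 0.01 ± 0.08 (SE, interval -0.17 to 0.19; edgeR adjusted p 0.985). CreER-positive replicate 3 had the lowest Trpm2 level and the highest macrophage sum. The log2 fold change of Trpm2 was negative with 3 other scalings, upper-quartile factors, total counts and pan-neuronal markers, by at most 0.015 on the log2 scale.

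Trpm4 (NCBI gene 68667, chromosome 7, 45303155 to 45334071, minus strand) encodes a calcium-activated channel that passes sodium. It had 98.7, 97.9 and 102.6 CPM in CreER-positive mice and 105.2, 100.6 and 105.1 CPM in controls, so the groups overlapped (log2 fold change -0.06 ± 0.05 SE, interval -0.17 to 0.06, edgeR adjusted p 0.774). A ribosomal protein pseudogene, Rpl14-ps1, lies inside Trpm4 over 694 bases on the plus strand, at chromosome 7, 45324958 to 45325651. It held 3523, 3464 and 3407 counts in CreER-positive libraries and 2473, 3104 and 3787 counts in control libraries, while Trpm4 held 5461 to 6016 counts in CreER-positive libraries and 4279 to 6646 counts in control libraries. Because no strand setting is known and a pseudogene shares sequence with its parent gene, the Trpm4 level is uncertain.

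Trpm7 (NCBI gene 58800, chromosome 2, 126791558 to 126876261, minus strand) encodes a channel fused to a kinase that carries magnesium and is found in most cell types. It had 103.9, 97.8 and 106.3 CPM in CreER-positive mice and 104.0, 107.0 and 98.7 CPM in controls. With a log2 fold change of -0.01 ± 0.06 (SE, interval -0.13 to 0.12) and an edgeR adjusted p of 0.977, its difference was smaller than the spread between mice. The sign turned with no count filter (0.0018).

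**Figure D2:**
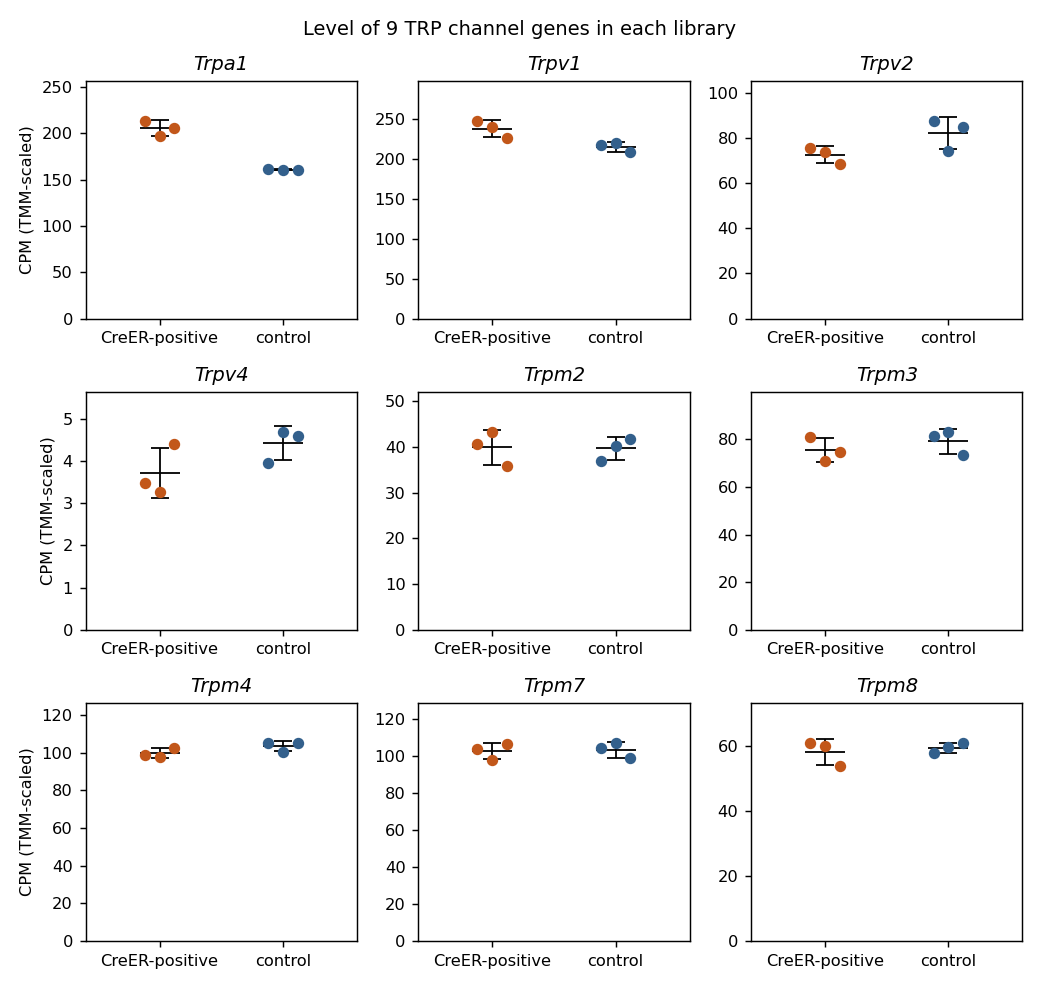
TMM-scaled CPM of the 9 channel genes in each library (points), with the mean and SD of each group (black, n = 3); every axis starts at 0. Trpa1 and Trpv1 show no overlap between CreER-positive and control mice, and the other 7 genes overlap.

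**Figure D3:**
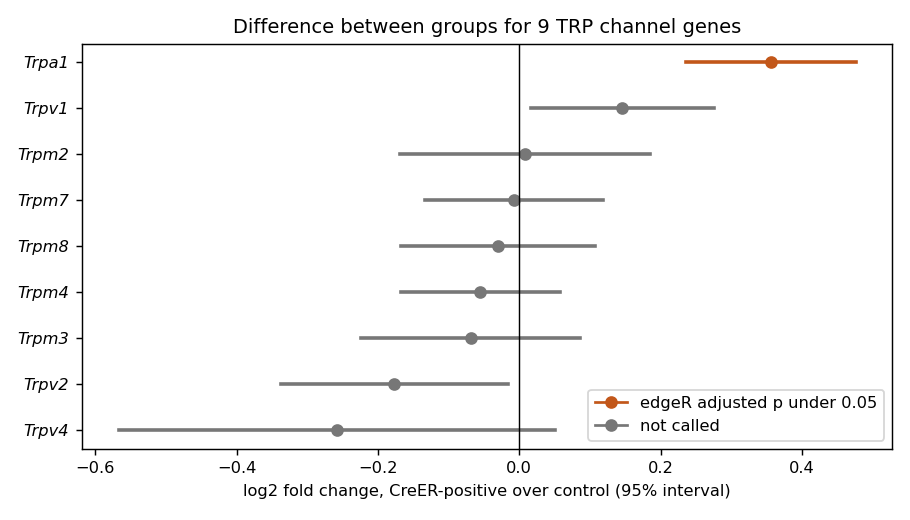
Log2 fold change of each channel gene, CreER-positive over control, with its 95% interval from edgeR; orange marks an adjusted p under 0.05. Trpa1 lies highest at 0.36 and Trpv4 lowest at -0.26 with the widest interval.

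Across the members, 3 estimates were positive and 6 were negative, with a median log2 fold change of -0.03 against 0.00 over all tested genes. An unadjusted p under 0.05 was found for 3 of the 9, Trpa1, Trpv1 and Trpv2, and for 10.6% of all tested genes. Within a library, the ratio of a gene to Trpv1 does not depend on the scaling of that library, and such ratios are compared here only between libraries. Trpa1 over Trpv1 was 0.862, 0.824 and 0.909 in CreER-positive mice, against 0.744, 0.730 and 0.769 in controls. All 3 CreER-positive ratios lay above the control ratios, with a log2 difference of 0.21 between the group means. The exact two-sided permutation p was 0.1, the smallest that 3 mice against 3 allow, and 0.133 after Benjamini-Hochberg adjustment over 8 ratios. Without any 1 library the log2 difference was 0.17 to 0.24. The ratio of Trpv2 to Trpv1 was 0.305, 0.307 and 0.302 in CreER-positive mice, against 0.404, 0.337 and 0.406 in controls (log2 difference -0.32, exact permutation p 0.1). Trpm3, Trpm4, Trpm7 and Trpm8 over Trpv1 also lay lower in every CreER-positive mouse than in every control, by -0.22, -0.20, -0.15 and -0.18 on the log2 scale. Trpv4 and Trpm2 overlapped (exact permutation p 0.2 each). All 8 ratios share the Trpv1 level, so they are not independent of each other. Trpv1 itself had a log2 fold change of 0.15, while those of Trpm3, Trpm4, Trpm7 and Trpm8 were -0.07, -0.06, -0.01 and -0.03. A lower ratio to Trpv1 is thus not by itself a lower level of the channel gene.

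**Figure D4:**
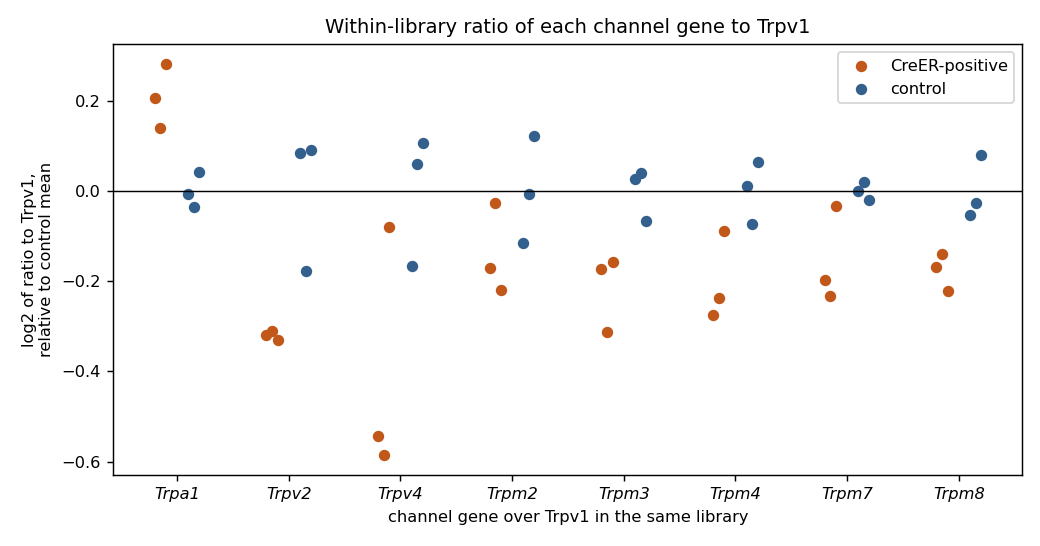
Log2 of the ratio of each channel gene to Trpv1 in the same library, set relative to the control mean of that ratio, with CreER-positive libraries left of control libraries for each gene. The CreER-positive points of Trpa1 lie above the control points, and those of Trpv2, Trpm3, Trpm4, Trpm7 and Trpm8 lie below them.

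Levels of the genes were set against each other only per length, in 2 ways. The authors' RPKM (the deposited count scaled by gene width and library total) uses a width close to the whole gene span, introns included, and exons make up 2.57% (Trpm3) to 35.0% (Trpm4) of it. By deposited RPKM, Trpv1 was highest at 7.93 ± 0.193 in CreER-positive mice and 7.27 ± 0.246 in controls (SD, n = 3 each). Trpa1 followed with 4.45 ± 0.186 RPKM in CreER-positive mice and 3.52 ± 0.0285 RPKM in controls. Over the 6 libraries the range of Trpa1 overlapped that of the next gene, Trpm4 (3.17 to 3.49 RPKM), and Trpm4 overlapped Trpv2 (2.75 to 3.48 RPKM). Trpm7 came next at 1.16 to 1.302 RPKM, then Trpm8 (0.677 to 0.754 RPKM) and Trpm2 (0.596 to 0.698 RPKM), which overlapped each other. Trpv4 (0.0902 to 0.133 RPKM) and Trpm3 (0.0749 to 0.0903 RPKM) were lowest and overlapped by a narrow margin.

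Per kilobase of the union of GENCODE exons, the top of the order stayed as it was. Trpv1 had 61.6 to 67.4 CPM per kilobase in CreER-positive mice and 56.7 to 59.7 in controls, and Trpa1 had 46.3 to 50.2 in CreER-positive mice and 37.6 to 37.9 in controls. The neighbours in this order from Trpv1 down to Trpm4 did not overlap over the 6 libraries: Trpv2 had 15.3 to 19.5 CPM per kilobase, Trpm8 11.4 to 12.9 and Trpm4 9.04 to 9.72. Trpm4 overlapped Trpm7 (8.65 to 9.46 CPM per kilobase), and Trpm2 (2.87 to 3.48) overlapped Trpm3 (2.90 to 3.40). Trpm8 and Trpm3 thus stood 2 and 1 places higher per exon length than per gene width, and Trpv4 was lowest with 0.802 to 1.15 CPM per kilobase. Counts may include introns, and the exon union takes in every annotated transcript, so this order between genes is uncertain.

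**Figure D5:**
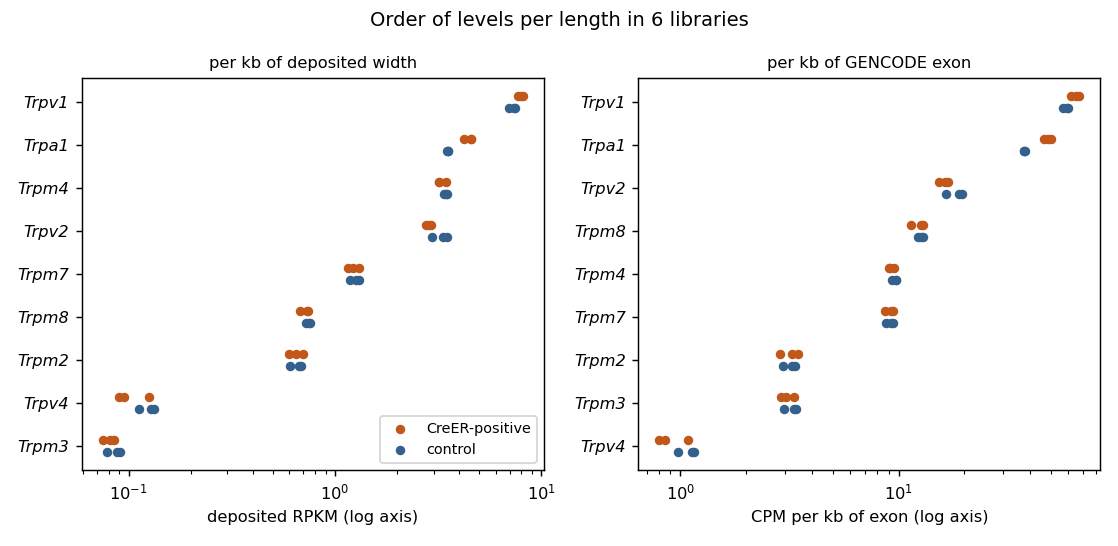
Level of each channel gene in every library per kilobase of deposited width (left, RPKM) and per kilobase of exon (right, CPM per kilobase), both on log axes, with the highest gene at the top and CreER-positive points above control points. Trpv1 and Trpa1 lead both orders, and Trpm8 stands higher in the order by exon length than in the order by width.

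The genes whose pattern over the 6 libraries was most like that of Trpa1 were ranked by the mean absolute difference of log2 deviations from each gene's own mean, among 11194 genes that averaged 10 CPM or more. The closest was Nrxn3, a neurexin gene of synaptic adhesion, at 0.02, with 112, 103 and 112 CPM in CreER-positive mice and 85.8, 86.6 and 85.4 CPM in controls. Cdk20, Mpst, Ass1 and Pard3 followed at 0.03 to 0.04. Nrxn3 (edgeR adjusted p 0.0210) and Ass1, the argininosuccinate synthase gene (0.0298), were called higher, and Cdk20 (0.0519), Mpst (0.158) and Pard3 (0.0948) were not. Over all tested genes 0.163% were called higher. These genes were picked for their likeness to Trpa1, so a higher level in CreER-positive mice was built into the choice. Their calls are therefore no separate result.

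Other TRP channel genes were read from the same fit. Of 19 listed, 15 were tested, 1 was called higher and 2 were called lower, with 5 at an unadjusted p under 0.05 and a median log2 fold change of -0.02. In all tested genes 0.163% were called higher, 0.563% were called lower and 10.6% had an unadjusted p under 0.05. Trpc5 had 4.52, 4.15 and 3.65 CPM in CreER-positive mice and 1.28, 2.35 and 2.02 CPM in controls (1.10 ± 0.19 SE, edgeR adjusted p 0.0392), and its reads cannot be told apart from those of the overlapping Trpc5os and Mageb16-ps1. Trpc6 overlaps Gm32014. Trpc6 fell to 34.3 ± 2.54 CPM in CreER-positive mice, against 47.8 ± 3.76 CPM in controls, and Trpc4 fell to 6.02 ± 0.482 CPM in CreER-positive mice, against 8.69 ± 0.462 CPM in controls (SD, n = 3 each). Their edgeR adjusted p values were 0.0255 and 0.0392. Each of these 3 calls ended when any 1 control or CreER-positive replicate 2 was left out (edgeR adjusted p 0.0539 to 0.228), and Trpc5 also ended without CreER-positive replicate 1 (0.0956). With scaling to pan-neuronal markers all 3 calls ended (0.146 for Trpc4, 0.0801 for Trpc5 and 0.214 for Trpc6). Among the remaining A, V and M relatives, Trpv3 (-0.06), Trpm6 (0.05) and Trpv6 (0.24) were not called, at edgeR adjusted p values of 0.918, 0.914 and 0.6895. Trpv5, Trpm1 and Trpm5 did not pass the filter, with at most 12 counts a library.

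A list of 32 sensory neuron receptors, most of them known to open or sensitise TRP channels, had 29 tested genes. Of these 1 was called higher, 2 were called lower and 9 had an unadjusted p under 0.05, with a median log2 fold change of 0.04. Over all tested genes these shares were 0.163%, 0.563% and 10.6%. By DESeq2, Mrgpra3 (adjusted p 0.0251) and Tnfrsf1a, a tumour necrosis factor receptor gene (0.0341), were called higher, and edgeR called neither (0.111 and 0.162). P2ry1, a receptor gene for ADP, fell to 91.1 ± 13.8 CPM in CreER-positive mice, against 167 ± 11.6 CPM in controls (SD, n = 3 each). Its log2 fold change of -0.88 ± 0.10 (SE) had an edgeR adjusted p of 0.00551 and kept its call without any 1 library. Htr2a, a serotonin receptor gene, fell to 8.75 ± 0.760 CPM in CreER-positive mice, against 12.4 ± 1.002 CPM in controls (-0.51, edgeR adjusted p 0.0493). The Htr2a call ended without any control replicate (0.0808 to 0.254) or without CreER-positive replicate 1 (0.0708) or 2 (0.1003), and with DESeq2 size factors (0.0538), no count filter (0.0537), legacy settings (0.0506) or pan-neuronal scaling (0.121). Cckbr, a cholecystokinin receptor gene, rose on low counts of 19, 27 and 35 in CreER-positive libraries, against 2, 5 and 4 in control libraries (2.71, edgeR adjusted p 0.0266). Leaving out control replicate 1 (0.132), 2 (0.111) or 3 (0.148), or CreER-positive replicate 2 (0.0552), ended that call, as did pan-neuronal scaling (0.0805). DESeq2 gave Cckbr no adjusted p, and Cckbr did not pass the filter of 1 CPM in 3 libraries. With control replicate 2 and CreER-positive replicate 3 both left out, the calls of Cckbr (edgeR adjusted p 0.0765) and Htr2a (0.139) ended.

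Signalling enzymes upstream of the channels, 32 genes of phospholipase C, kinase, cyclase and lipid pathways, were all tested. The calcium-stimulated adenylyl cyclase gene Adcy8 was the single one called. It rose to 16.8 ± 1.01 CPM in CreER-positive mice, against 10.9 ± 1.32 CPM in controls (SD, n = 3 each), with a log2 fold change of 0.63 ± 0.10 (SE) and an edgeR adjusted p of 0.0201. The Adcy8 call was lost when control replicate 1 (0.0546), 2 (0.0842) or 3 (0.0559) or CreER-positive replicate 2 (0.0564) was left out, and with pan-neuronal scaling (0.0888). Adcy8 overlaps Gm30752. Prkca, protein kinase C alpha (-0.29, 0.234), and Prkar2b, a regulatory subunit of protein kinase A (-0.18, 0.333), had the next smallest p and missed the edgeR threshold, while Prkca passed that of DESeq2 (adjusted p 0.0327). The list had 3 genes with an unadjusted p under 0.05, a share close to the 10.6% of all tested genes, and a median log2 fold change of -0.01. Of all tested genes 0.726% were called.

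Of 30 channel partners and regulators 0 were called by edgeR or limma-voom, 5 had an unadjusted p under 0.05, beside 10.6% of all tested genes, and 1 was called by DESeq2. That gene was Syt9, a synaptotagmin gene of vesicle release, with 175, 172 and 152 CPM in CreER-positive mice and 135, 142 and 138 CPM in controls (log2 fold change 0.26, edgeR adjusted p 0.153). Every CreER-positive value of Syt9 lay above every control value. Tmem100, whose protein links TRPA1 to TRPV1 in mouse sensory neurons, had 51.7, 48.0 and 47.3 CPM in CreER-positive mice, against 44.8, 40.7 and 42.1 CPM in controls. Its groups did not overlap either, and with a log2 fold change of 0.20 and an edgeR adjusted p of 0.234 it was not called. No overlap was found for 6 of the 30 genes of this list, beside 15.9% of all tested genes. Without CreER-positive replicate 3, Syt9 was called higher (edgeR adjusted p 0.00963).

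Of the 16 lists of cell type markers, 13 held 0 genes called by edgeR, with 17 of their 90 tested genes at an unadjusted p under 0.05 (10.6% over all tested genes), 1 DESeq2 call and 0 limma-voom calls. In the other lists, the non-peptidergic one had 2 genes lower and the mechanoreceptor one had 4 of 6 lower (Slc17a8, Pou4f2, Th and Tafa4). The endothelial and mural one had Rgs5 lower, where 0.563% of all tested genes were called lower. Cdh9 of the mechanoreceptor list was higher in every CreER-positive mouse than in every control and was not called (log2 fold change 0.35, edgeR adjusted p 0.263). Of the 9 endothelial and mural markers, 8 had a positive log2 fold change, and the median of the list was 0.155. Slc17a8 and Pou4f2 kept their calls in every alternative. Th lost its call without control replicate 2 (edgeR adjusted p 0.1205) or 3 (0.116) or CreER-positive replicate 2 (0.0533). The call of Tafa4 ended without any 1 control (0.0856 to 0.132), without CreER-positive replicate 2 (0.0797) and with pan-neuronal scaling (0.0551). Rgs5 lost it without any 1 control (0.0539 to 0.171), without CreER-positive replicate 1 (0.0558) or 2 (0.0778) and with pan-neuronal scaling (0.115). With control replicate 2 and CreER-positive replicate 3 both left out, the calls of Th (0.0574), Tafa4 (0.0535), Rgs5 (0.09204) and Plxnc1 (0.0607) ended. The summed level did not overlap between groups in 5 lists. Of single tested genes 15.9% did not overlap, but a sum over several genes is another measure. Besides the peptidergic, non-peptidergic and cold-sensing lists given above, the lists without overlap were C-fibre mechanoreceptor markers (205 to 242 CPM in CreER-positive mice, 306 to 313 CPM in controls) and spinal cord and central glia markers (30.2 to 35.8 CPM in CreER-positive mice, 26.2 to 30.1 CPM in controls). The margin was narrow for the cold-sensing list (highest CreER-positive sum 44.66 CPM, lowest control sum 44.93 CPM). It was also narrow for the spinal cord list (lowest CreER-positive sum 30.24 CPM, highest control sum 30.09 CPM). In the remaining 11 lists the sums overlapped.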

How the data were processed

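RNA-seq of lumbar ganglia was analysed in 6 libraries, grouped by the genotype label. GSNAP and GRCm38 (mm10) are named per the submitters' processing notes; the counter, annotation and strandedness are not stated there or in the labels, which also give no batch. Per the file headers, each deposited table gives a raw count, a gene width (another unit, in bases) and an RPKM for 36528 NCBI gene IDs. The deposited RPKM divides the count by the width and a library total, and the counts sum to 1.46% to 2.17% above that total. For 77.7% of genes the width is within 5% of the gene span, so counts may include introns. RPKM was used for levels, not tests.

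IDs were matched to GRCm38.p6 symbols (31049 matched; the rest held 1.87% to 1.94% of counts). Low genes were removed with filterByExpr, leaving 22043, and the group was tested with edgeR 4.0.16 (R 4.3.3; TMM factors, quasi-likelihood test, legacy off, Benjamini-Hochberg at 0.05, common biological coefficient of variation 8.99%). The standard error is the log2 fold change divided by the square root of F. Ratios used exact permutation tests (scipy 1.17.1). DESeq2 1.42.0, limma-voom 3.58.1, other scalings and filters, and left-out libraries were alternatives; the legacy setting was added after seeing the data. Tested on simulated counts of 21805 genes, the same fit found 41.8% of changes at fold 1.3, 71.6% at 1.5 and 92.4% at 2, and 10 of its 147 calls were false. The changed genes were drawn from those with a mean above 1 CPM, so these shares do not cover lower genes. No 2 replicates agreed within sampling noise. The chi-square over degrees of freedom was 6.01 to 9.02 for pairs of controls and 35.4 to 43.9 for pairs of CreER-positive mice. Both groups shared the same biological coefficient of variation for a gene in the fit and in the simulated counts. The simulated shares and false calls therefore do not cover the unequal spread seen between these groups. Fewer counts of a gene give wider counting error, 0.850% (Trpv1) to 6.84% (Trpv4) of a mean. Exon lengths came from GENCODE M21. Figures used matplotlib 3.10.9.

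Members and lists (4 pathway, 16 marker) were chosen with earlier results of these data known. Named genes were the members, called list genes, the 3 smallest p values per pathway list, the 5 genes nearest Trpa1 in pattern, and Scn9a. Runx1, Gm27151, Rpl14-ps1, Tac1, Calca, Calcb, Sstr2, Gal, Mrgpra3, P2rx3, Gfra1, Cdh9, Tnfrsf1a, Trpv3, Trpv5, Trpv6, Trpm1, Trpm5 and Trpm6 were named, and the RUNX letters chosen, after values were seen. Of the listed partners, 1 symbol was not matched and 1 gene that the rule names is not reported here; a receptor listed under a synonym as well (Mrgprx1) was counted once, and several listed receptors and partners are also neuron type markers.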

Additional observations from a re-analysis of the deposited data

How the results depend on the processing

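Trpa1, Trpv1, Trpv2, Trpv4, Trpm3 and Trpm4 kept their direction under all 16 alternatives. The Trpa1 call was lost with scaling to pan-neuronal markers (log2 fold change 0.34) and without control replicate 2 and CreER-positive replicate 3 together (0.35). It was also lost without any 1 control and without CreER-positive replicate 1. Without 1 library the log2 fold change of Trpa1 was 0.33 to 0.39. Reversed signs, all of genes not called, were found for Trpm2 with upper-quartile factors (-0.0027), total counts (-0.015), pan-neuronal scaling (-0.014) and without CreER-positive replicate 2 (-0.0553) or control replicate 1 (-0.0413), for Trpm7 with no count filter (0.0018) and without CreER-positive replicate 2 (0.0255) or control replicate 2 (0.0186), and for Trpm8 without CreER-positive replicate 3 (0.0258) and without that library and control replicate 2 (0.0273). Without 1 library, Trpm2 ran from -0.0553 to 0.0801, Trpm7 from -0.0375 to 0.0255 and Trpm8 from -0.0601 to 0.0258. Genes called numbered 160, 78 with pan-neuronal scaling (73 of them among the 160), 420 with DESeq2, and 60 to 568 without 1 library. With pan-neuronal scaling the calls were 0 of the 9 channels, 0 other TRP genes, 1 receptor and 0 enzymes. DESeq2 called 4 receptors (2 higher, 2 lower), 2 enzymes and 1 partner. Without 1 library they were 0 to 1 channels, 0 to 3 other TRP genes, 1 to 6 receptors, 0 to 3 enzymes and 0 to 2 partners. Without control replicate 2 and CreER-positive replicate 3 together they were 0 channels, 1 other TRP gene, 0 enzymes and 1 partner. The cause was not tested. Low counts limit Trpv4 most. No paired analysis was possible because the labels give no replicate numbers: those used here follow accession order, only name the libraries and pair no mice.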
